A study of Mus musculus with 20 samples.

Results

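The genes described here make cholesterol, sense its level, carry it between membranes or move it in and out of the hepatocyte. The 28 genes were taken by name from a list of the pathway, out of 21900 protein-coding mouse genes, and each was read through the histone marks of the chromatin in its gene body or within 10 kb of it. Livers came from 9-week-old male C57BL/6 mice kept on standard chow and fasted for 24 hours. All genotypes shared that fast, so no fed liver serves as a control. Their 4 genotypes comprised wild type (WT), Cpt2 L-/- with Cpt2 deleted in the liver (Cpt2 KO), Ppara -/- (Ppara KO) and Cpt2 L-/-;Ppara -/-, the double knockout (DKO). The driver of the liver-specific deletion is not given in the sources used here. Cpt2 encodes a carnitine palmitoyltransferase of the inner mitochondrial membrane that long-chain fatty acids need for their oxidation, and Ppara encodes the nuclear receptor that turns on fasting genes when it binds fatty acids. Chromatin immunoprecipitation with sequencing measured H3K27ac, an acetylation found at active promoters and enhancers, and H3K4me1, a methylation found mainly at enhancers, in 2 liver libraries of each genotype. A library is called a liver below, although the labels do not say whether the replicates of a genotype are separate animals, so the p-values measure the spread between these samples only. The acetylation mark H3K9ac was measured in 1 WT and 1 Cpt2 KO liver.

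Cholesterol is built from acetyl-CoA through mevalonate, isoprenoid units, squalene and lanosterol. When sterols are scarce in the endoplasmic reticulum, SCAP escorts the SREBP-2 protein, the product of Srebf2, to the Golgi, where it is cut and released to switch on the genes of synthesis and uptake. INSIG proteins hold SCAP back when sterols are plentiful. The liver exports sterols into bile through ABCG5 and ABCG8, loads them onto nascent high-density lipoprotein through ABCA1, and takes cholesterol back from that lipoprotein through SCARB1.

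Promoter sequences were looked at first, because the known control of these genes runs through short motifs near the start site. RefSeq windows of build GRCm38.p6, running from 250 bases before to 50 bases after each start, matched 23 of the 28 genes. Those not matched were Fdps, Fdft1, Sqle, Scarb1 and Stard4. Both strands were searched, and no searched motif contains another. All 27025 genes with a window served for comparison. They were not limited to protein-coding genes, and a gene counted if any of its windows matched. CCAAT, the box bound by NF-Y, was found in 20 of the 23 genes (87%) and in 41.1% of all genes with a window. GGGCGG, the box bound by Sp1, was also found in 20 of the 23 (87%), against 38.2% of all genes. A sterol regulatory element spelled TCACNCCAC was found in 1 of the 23 (4.35%), against 1.44% of all genes. That gene was Hmgcs1, with the match TCACCCCAC at position -137 from the start. The letters AGGTCA repeated in the same direction, the form bound by nuclear receptors, were in no listed window with a spacing of 1 base (0.0481% of all genes), nor with a spacing of 4 bases (0.0148% of all genes). The windows below are the 180 bases before the start for the 6 matched genes whose H3K27ac differed with the loss of Cpt2 or of Ppara, each written from 5′ to 3′ along the gene, with matches to TCACNCCAC, CCAAT or GGGCGG on either strand in capitals.
Hmgcs1: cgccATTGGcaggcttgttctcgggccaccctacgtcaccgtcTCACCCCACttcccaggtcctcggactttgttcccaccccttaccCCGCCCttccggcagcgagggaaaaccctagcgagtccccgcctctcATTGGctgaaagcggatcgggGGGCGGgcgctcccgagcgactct
Insig1: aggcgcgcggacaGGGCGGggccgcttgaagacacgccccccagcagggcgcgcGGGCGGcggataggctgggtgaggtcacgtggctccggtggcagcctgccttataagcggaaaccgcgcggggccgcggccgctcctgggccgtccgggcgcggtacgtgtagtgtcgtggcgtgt
Lss: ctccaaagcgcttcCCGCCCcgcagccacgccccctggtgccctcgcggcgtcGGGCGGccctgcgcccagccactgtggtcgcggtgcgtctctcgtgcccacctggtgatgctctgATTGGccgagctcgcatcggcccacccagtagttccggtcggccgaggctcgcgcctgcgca
Msmo1: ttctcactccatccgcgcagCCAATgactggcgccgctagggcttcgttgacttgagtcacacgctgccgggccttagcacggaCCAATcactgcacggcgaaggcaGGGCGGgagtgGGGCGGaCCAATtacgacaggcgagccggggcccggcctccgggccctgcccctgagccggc
Sc5d: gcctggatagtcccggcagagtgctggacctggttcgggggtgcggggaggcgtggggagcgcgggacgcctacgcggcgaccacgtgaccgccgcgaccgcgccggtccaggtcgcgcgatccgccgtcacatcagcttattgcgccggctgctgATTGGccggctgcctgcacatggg
Srebf2: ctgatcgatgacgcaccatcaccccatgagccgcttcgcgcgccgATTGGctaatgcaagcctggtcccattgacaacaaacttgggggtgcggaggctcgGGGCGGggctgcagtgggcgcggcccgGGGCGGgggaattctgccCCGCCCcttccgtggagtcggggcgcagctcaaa
The Hmgcs1 window (chr13:119690171-119690350, plus strand) holds the single sterol element between a pair of CCAAT boxes, with 2 GGGCGG boxes. In Msmo1 (chr8:64733579-64733758, minus strand) there are 3 CCAAT boxes and 2 GGGCGG boxes, and in Srebf2 (chr15:82147089-82147268, plus strand) 1 and 3. Lss (chr10:76531425-76531604, plus strand) has 1 CCAAT box and 2 GGGCGG boxes. The Insig1 stretch (chr5:28071232-28071411, plus strand) holds 2 GGGCGG boxes and no CCAAT box, and that of Sc5d (chr9:42264301-42264480, minus strand) 1 CCAAT box and no GGGCGG box. The longer windows searched add a CCAAT match at -216 in Insig1 and GGGCGG matches at -241, -205, -3 and 16 in Sc5d. These lie beyond or across the ends of the printed stretches. A match of letters is a description and does not show that a factor was bound.

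Per library, the deposited lists held 44454 to 48929 H3K27ac peaks and 61189 to 72151 H3K4me1 peaks, and the depth in reads is unknown because the lists give no read totals. Marks near Cpt2 and Ppara do not test the deletions: an H3K27ac interval at the Cpt2 start (mm10, chromosome 4, 107920649 to 107924008) was called in all 8 libraries. Of 24 H3K27ac intervals with midpoints inside Ppara, 3 were called in at least 3 Ppara-intact livers and in no Ppara-null liver (1.73% of all intervals). The reverse held for 1 (1.63% of all intervals). Before centring, the median log2 fold over the H3K27ac intervals called in all 8 libraries differed by 0.27 with loss of Cpt2 (Cpt2-null minus Cpt2-intact) and by 0.03 with loss of Ppara, and every difference below is relative to those medians. The smallest peak of each H3K27ac list was 198 to 210 bases wide in the Cpt2-intact livers and 217 to 223 in the Cpt2-null livers, so peak width and the loss of Cpt2 cannot be told apart in these lists.

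Near the 28 genes lay 181 of the 65776 H3K27ac consensus intervals, of which 47 were called in all 8 libraries, and 273 of the 103014 H3K4me1 intervals, of which 63 were. The value of a gene is the mean, over its intervals called in every library, of the log2 fold enrichment over input, with the library median subtracted. It existed for 24 of the 28 genes in H3K27ac. Mvk, Sqle, Nsdhl and Hsd17b7 had no interval called in all 8 libraries and were not tested. Of the 23 genes whose start could be placed, 20 had it inside an H3K27ac interval, and for 16 that interval was called in every library. The start intervals of all 16 genes overlapped H3K9ac in both the WT and the Cpt2 KO liver. H3K4me1 intervals covered the start of 2 of the 23 genes.

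Loss of Cpt2 (Cpt2 KO and DKO against WT and Ppara KO, 4 livers against 4) was accompanied by lower H3K27ac at genes of several steps of the pathway. In limma with Benjamini-Hochberg adjustment over 11264 genes, 7 of the 24 tested genes were lower and 1 was higher. Over all genes, 5.42% were lower and 4.16% higher. The lower genes were Insig1, Scarb1, Sc5d, Hmgcs1, Msmo1, Srebf2 and Fdft1, and the higher gene was Fdps. Of the 24 differences 18 were negative, with a median of -0.32 on the log2 scale, against 0.00 for all genes. Without centring on the library median 4 genes passed, Insig1 and Msmo1 lower and Fdps and Mvd higher. Of all genes 21% then passed in either direction, against 9.57% with centring. With the smallest peak width as a covariate 0 genes passed, of the list and of all genes (899 of all genes at an unadjusted p under 0.05). The count was 7 without either WT liver and 3 or 4 without any 1 of the 6 knockout livers, and the calls of Hmgcs1, Fdps, Msmo1, Fdft1 and Srebf2 held in 3, 2, 2, 1 and 1 of those 8 fits.

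**Figure D1:**
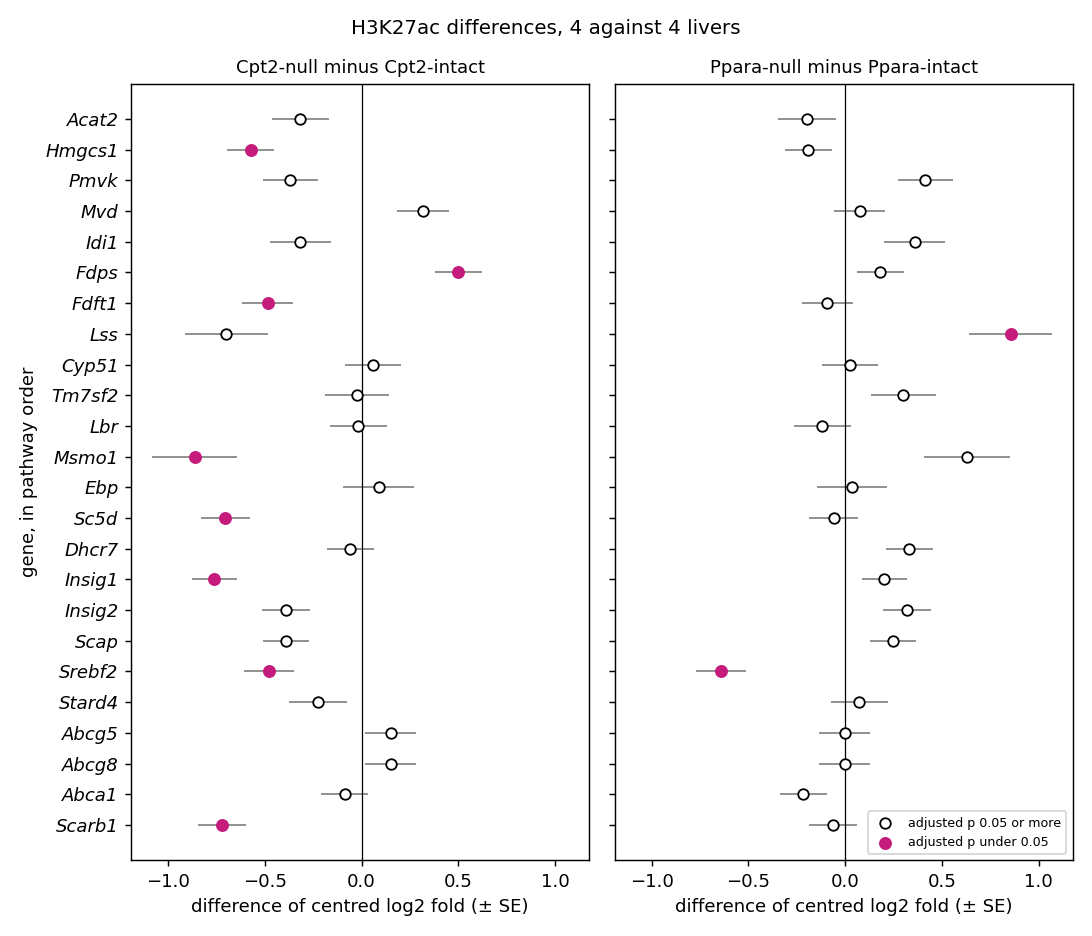
Log2 difference in centred H3K27ac fold for each of the 24 tested genes (rows), Cpt2-null minus Cpt2-intact and Ppara-null minus Ppara-intact livers, 4 against 4. Bars are 1 standard error and filled points have a limma adjusted p under 0.05: 8 genes for Cpt2, 7 of them left of 0, and 2 genes for Ppara.

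Hmgcs1 (NCBI Gene 208715), whose enzyme condenses acetoacetyl-CoA with acetyl-CoA to HMG-CoA, carried its H3K27ac in an interval over the start site (chromosome 13, 119690274 to 119691765), the one that begins inside the window printed above. The WT livers had folds of 22.2 and 31.0, those of Cpt2 KO 15.8 and 15.3, those of Ppara KO 18.2 and 16.3, and those of DKO 18.4 and 19.6. WT livers stood highest and Cpt2 KO livers lowest, and after centring the DKO livers (0.59 and 0.49) overlapped the Ppara KO livers (0.86 and 0.56). The centred log2 difference with loss of Cpt2 was -0.57 (SE 0.12, limma adjusted p = 0.0195). Among the other genes that make mevalonate and activate it, Acat2, the cytosolic thiolase, differed by -0.32 (adjusted p = 0.182), Pmvk, phosphomevalonate kinase, by -0.37 (adjusted p = 0.113) and Mvd, mevalonate diphosphate decarboxylase, by 0.32 (adjusted p = 0.140). None of these 3 passed the test over all 8 livers. Mvk, mevalonate kinase, had a single nearby interval, called in 7 libraries.

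Fdps, which makes farnesyl diphosphate from isoprenoid units, was the listed gene with higher H3K27ac in Cpt2-null livers. Its value came from 1 interval (chromosome 3, 89089461 to 89091021) with its midpoint 3347 bases outside the gene and nearest to another gene, Rusc1. The WT livers had folds there of 7.31 and 9.71, those of Cpt2 KO 13.5 and 13.0, those of Ppara KO 8.16 and 10.0, and those of DKO 16.2 and 17.1. All 4 Cpt2-null livers lay above all 4 Cpt2-intact livers. The log2 difference was 0.50 (SE 0.12, limma adjusted p = 0.0277), while the same interval tested among intervals had an adjusted p of 0.062, and with intervals called in at least 6 libraries, uncalled ones filled, the Fdps difference was -0.04. Idi1, the isomerase that supplies the reactive isoprenoid unit, differed by -0.32 (adjusted p = 0.215).

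Fdft1, squalene synthase, was lower by the mean of its 3 intervals (log2 difference -0.49, SE 0.13, limma adjusted p = 0.0423). The strongest of these, inside the gene body (chromosome 14, 63159156 to 63166039), gave the WT livers folds of 22.0 and 29.9, those of Cpt2 KO 16.2 and 15.9, those of Ppara KO 13.8 and 16.0, and those of DKO 7.71 and 13.9. Both WT livers stood above the other 6, and the lowest fold was in a DKO liver. At this interval the difference was -0.87 with loss of Cpt2 (adjusted p = 0.00962) and -0.74 with loss of Ppara (adjusted p = 0.0201). Its Cpt2 call held without any 1 library, its Ppara call was lost in 5 of 8 such fits (adjusted p up to 0.0822), and the Fdft1 gene mean differed by -0.09 with loss of Ppara (adjusted p = 0.738). A further 3 H3K27ac and 4 H3K4me1 intervals near Fdft1 were called in at least 3 Cpt2-intact livers and in no Cpt2-null liver.

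Sqle, squalene epoxidase and a rate-limiting step of the pathway, could not be tested as a gene, because no interval was called in all 8 libraries. Its start interval (chromosome 15, 59315050 to 59317135) was called in 6. The WT livers had folds of 6.01 and 10.3, Ppara KO livers 11.8 and 16.4, and DKO livers 10.3 and 11.3, with no peak called in either Cpt2 KO liver. Lss, which closes squalene epoxide into lanosterol, had an H3K27ac interval over its start (chromosome 10, 76531511 to 76532226), where the WT livers had folds of 5.2 and 6.08, those of Cpt2 KO 4.25 and 3.29, those of Ppara KO 7.17 and 12.1, and those of DKO 5.43 and 10.9. The Cpt2 KO livers were the lowest for Lss, and the Ppara KO livers and 1 DKO liver the highest. Its difference with loss of Cpt2 was -0.70 (SE 0.21, limma adjusted p = 0.0594), and that with loss of Ppara is given with the other Ppara results.

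Between lanosterol and cholesterol, 7 of 9 genes were tested and Msmo1 and Sc5d were lower. Sc5d, the desaturase that adds a double bond to lathosterol, had a start interval (chromosome 9, 42259664 to 42266394). The WT livers had folds there of 12 and 27.1, those of Cpt2 KO 9.04 and 9.67, those of Ppara KO 11 and 14.9, and those of DKO 12.1 and 7.86. The WT replicates differed widely there, and 1 DKO liver lay within the range of the Cpt2-intact livers. The mean over its 2 intervals differed by -0.70 (SE 0.13, limma adjusted p = 0.0124), and the start interval alone by -0.94 (adjusted p = 0.0243), a call lost in 5 of 8 fits without 1 library (up to 0.0843). Msmo1, the methylsterol oxidase that starts removal of the C4 methyl groups, was measured at an upstream interval (chromosome 8, 64734548 to 64735606) with its midpoint 1499 bases before the start. For Msmo1 the WT livers had folds of 10.2 and 7, those of Cpt2 KO 6.23 and 6.33, those of Ppara KO 12.5 and 18, and those of DKO 11.3 and 6.87. One DKO liver lay above both WT livers, so the groups overlapped, and the difference was -0.86 (SE 0.22, adjusted p = 0.0343). The Msmo1 interval over the start (chromosome 8, 64732469 to 64733988) was called in 7 libraries, with folds of 9.29 and 19.5 in WT, 5.44 in 1 Cpt2 KO liver, and with Ppara KO livers at 13.7 and 20.7 and DKO livers at 12.3 and 10.9.

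The other tested genes of these last steps had small differences with loss of Cpt2. On the log2 scale these were 0.06 for Cyp51, the lanosterol demethylase, 0.09 for Ebp, the sterol isomerase, and -0.06 for Dhcr7, the reductase of the last double bond. Tm7sf2 and Lbr, both sterol reductases of the C14 position, each differed by -0.02. None of these 5 genes passed the test. Over the 19 listed enzymes of synthesis, 15 were tested, 4 were lower and 1 was higher with loss of Cpt2, where 5.42% of all genes were lower and 4.16% higher.

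**Figure D2:**
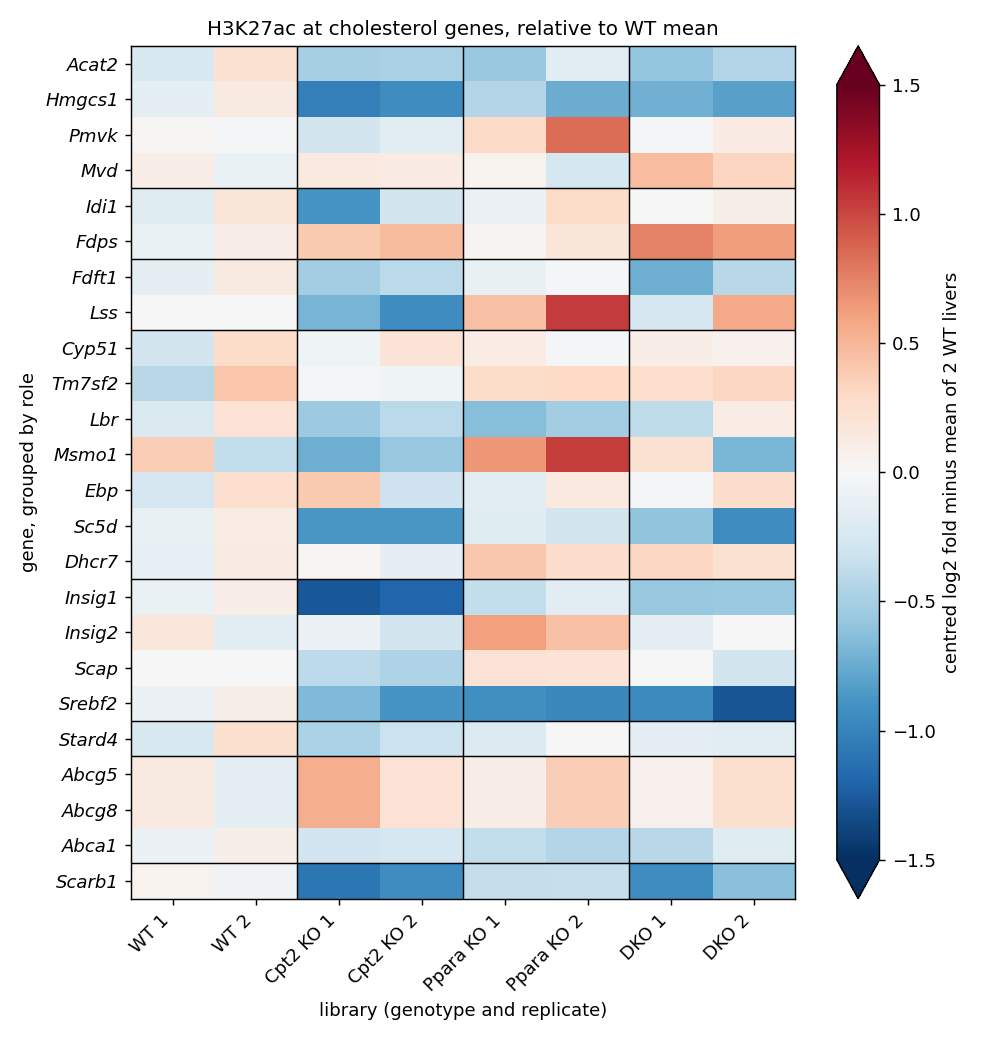
Centred log2 H3K27ac fold of each tested gene (rows, grouped by role) in each of the 8 livers (columns), minus the mean of the 2 WT livers; colour gives the difference on the log2 scale. Insig1, Hmgcs1, Sc5d, Scarb1, Srebf2, Fdft1, Acat2 and Abca1 lie below 0 in all 6 knockout livers, the Ppara KO livers included. Fdps, Abcg5 and Abcg8 lie above 0 in all 6.

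All 4 tested genes of sterol sensing had negative differences with loss of Cpt2, and Insig1 and Srebf2 passed the test. Insig1 (NCBI Gene 231070), which retains SCAP in the endoplasmic reticulum and is itself induced by SREBP proteins, had the smallest adjusted p of the list. Its start interval (chromosome 5, 28069516 to 28074481) gave the WT livers folds of 19.4 and 25.7, those of Cpt2 KO 11.3 and 10.9, those of Ppara KO 16.2 and 20.9, and those of DKO 17.3 and 20.0. Both Cpt2 KO livers stood far below the other 6, whereas uncentred folds of the DKO livers lay within the range of the Ppara KO livers. After centring, Insig1 values of the WT livers were 0.97 and 1.17, those of Cpt2 KO -0.20 and -0.12, those of Ppara KO 0.69 and 0.91, and those of DKO 0.50 and 0.52, so that all Cpt2-null livers lay below all Cpt2-intact livers. The difference was -0.76 (SE 0.12, limma adjusted p = 0.00913), and Insig1, like Sc5d and Scarb1, passed without any 1 of the 8 libraries.

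Srebf2 (NCBI Gene 20788), which encodes the transcription factor of the pathway, had 3 intervals called in every library, and they did not move alike. At the start interval (chromosome 15, 82143756 to 82148830) the WT livers had folds of 16.4 and 25.7, those of Cpt2 KO 10.1 and 11.4, those of Ppara KO 13.0 and 17.3, and those of DKO 15.3 and 14.6. Cpt2 KO livers were the lowest, and the difference was -0.74 with loss of Cpt2 (limma adjusted p = 0.0180) and -0.02 with loss of Ppara (adjusted p = 0.961). At an interval inside the gene, with its midpoint 19262 bases from the start (82165475 to 82167587), the WT livers had folds of 12.1 and 15.4, those of Cpt2 KO 18.4 and 13.0, those of Ppara KO 6.8 and 5, and those of DKO 12 and 9.29. Here every Ppara-null liver lay below every Ppara-intact liver, with a difference of -0.92 with loss of Ppara (adjusted p = 0.0166) and 0.25 with loss of Cpt2 (adjusted p = 0.432). At the interval 36567 bases from the start (82181143 to 82186530) the WT livers had folds of 19.8 and 21.7, those of Cpt2 KO 14.3 and 8.64, those of Ppara KO 8.16 and 10.3, and those of DKO 6.67 and 6.73. WT stood highest and DKO lowest there, with differences of -0.94 for Cpt2 (adjusted p = 0.00962) and -0.98 for Ppara (adjusted p = 0.00760), both past the threshold without any 1 library. The Cpt2 call at the start interval was lost in 4 of 8 such fits (adjusted p up to 0.0715) and without centring, and the Ppara call at the middle interval in 4 of 8 (up to 0.0659). The Srebf2 gene mean was lower with loss of Cpt2 (-0.48, SE 0.13, adjusted p = 0.0411) and with loss of Ppara (-0.64, SE 0.13, adjusted p = 0.0185).

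**Figure D3:**
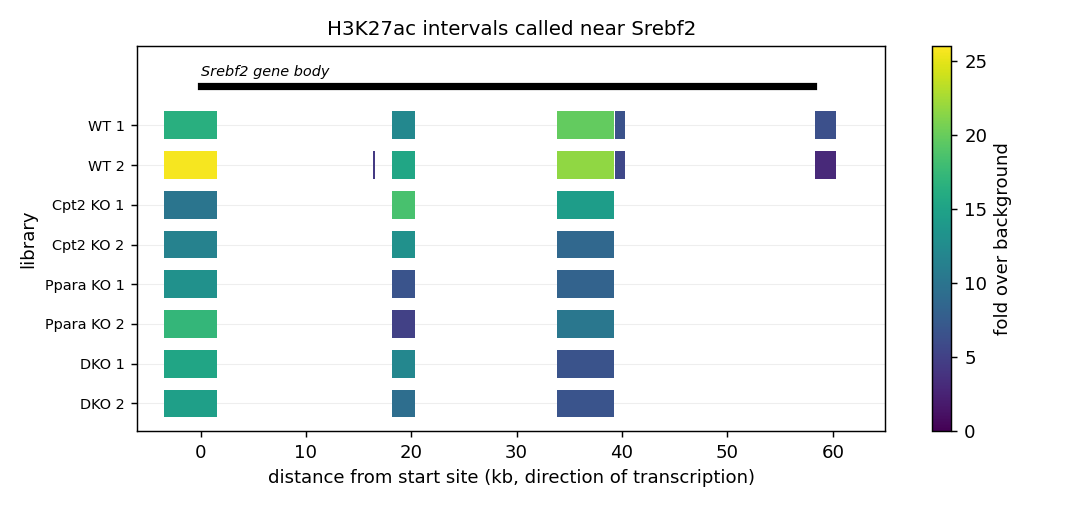
H3K27ac intervals near Srebf2 by distance from the start site in kb (x axis), one row per liver, with colour for the fold enrichment over input. The interval over the start is weakest in the 2 Cpt2 KO livers, the middle one in the 2 Ppara KO livers, and the far one in the 2 DKO livers (6.67 and 6.73).

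Scap, the escort of SREBP, had 3 intervals in its gene body called in every library, and they differed in direction. The strongest (chromosome 9, 110342677 to 110347459) gave the WT livers folds of 7.71 and 7.50, those of Cpt2 KO 16.4 and 12, those of Ppara KO 19.3 and 16.3, and those of DKO 24.4 and 20.9. WT livers were the lowest and DKO livers the highest, with a difference of 0.92 with loss of Ppara (limma adjusted p = 0.00783) that passed without any 1 library. The other Scap intervals were lower with loss of Cpt2, with differences of -0.68 at 110348376 to 110352669 (adjusted p = 0.0228) and -0.83 at 110357021 to 110358976 (adjusted p = 0.0111). Neither passed without centring, and the first was lost in 5 of 8 fits without 1 library (adjusted p up to 0.0894). The Scap mean over all 3 differed by -0.39 (adjusted p = 0.0605). Insig2, the INSIG form less dependent on SREBP, differed by -0.39 (adjusted p = 0.0688).

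Scarb1 (NCBI Gene 20778), the receptor for high-density lipoprotein, had lower H3K27ac at 4 of the 5 intervals called in every library when Cpt2 was lost. Without 1 library the call at 125339059 to 125341583 was lost in 6 of 8 fits (adjusted p up to 0.0981) and that at 125336596 to 125338804 in 1, and without centring those at 125339059 and at the longest interval were lost. At the longest, inside the gene (chromosome 5, 125323258 to 125335134), the WT livers had folds of 19.1 and 26.5, those of Cpt2 KO 13.8 and 14.2, those of Ppara KO 21.3 and 22.3, and those of DKO 12.2 and 23.0. One DKO liver was within the range of the Cpt2-intact livers on this scale. The centred gene means of the WT livers were 0.58 and 0.48, those of Cpt2 KO -0.56 and -0.41, those of Ppara KO 0.17 and 0.18, and those of DKO -0.40 and -0.10, without overlap between Cpt2-null and Cpt2-intact. The Scarb1 difference was -0.72 (SE 0.12, limma adjusted p = 0.0110). Over the listed genes, 13 of 47 intervals were lower and 0 higher with loss of Cpt2, against 7.38% and 4.90% of all 18281 intervals tested, and intervals of 1 gene are not independent of each other.

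**Figure D4:**
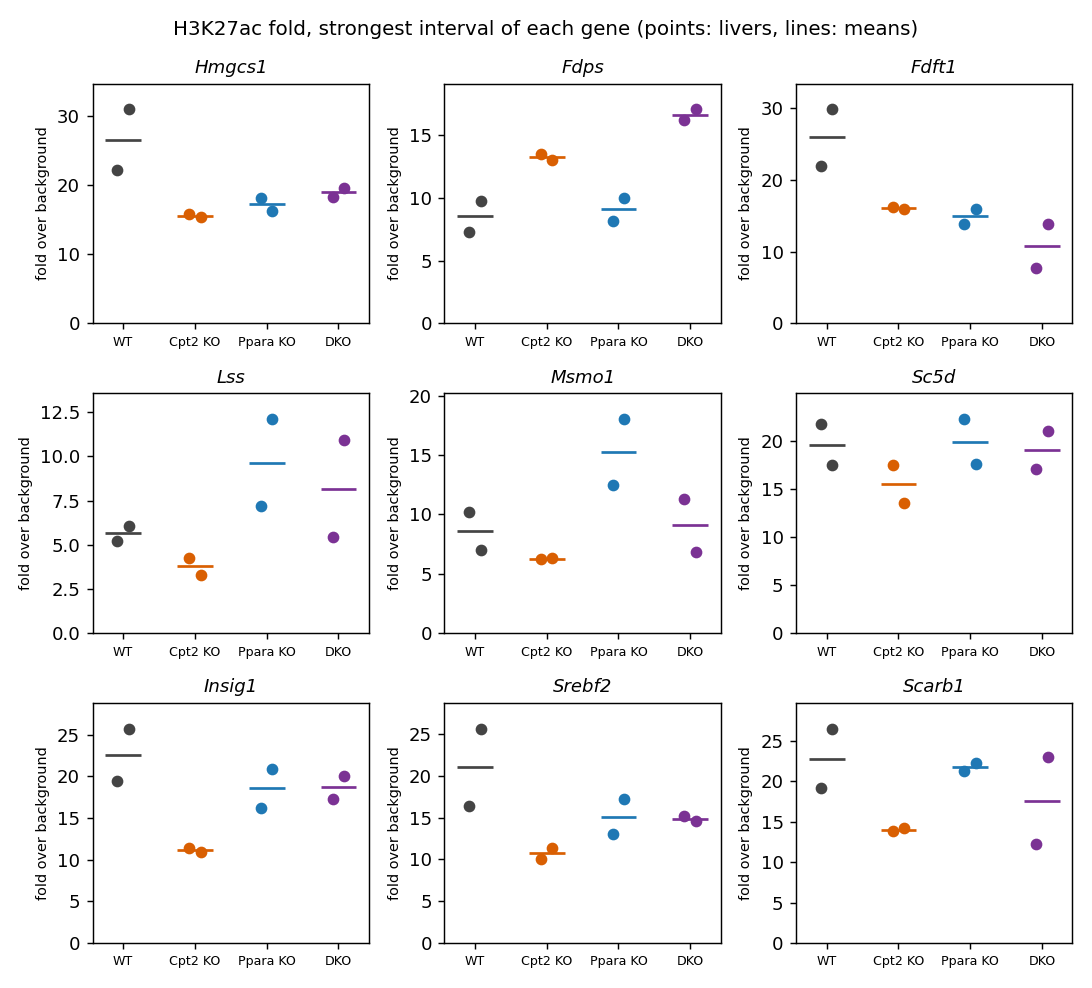
Deposited H3K27ac fold enrichment over input (y axis, linear) at the strongest interval called in all 8 libraries of 9 listed genes, one point per liver and 2 livers per genotype, before centring. For Insig1 the Cpt2 KO livers lie at 11.3 and 10.9 against 16.2 to 25.7 in the other 6.

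Export genes did not pass the test as genes. Abcg5 and Abcg8 together form the biliary sterol transporter, lie beside each other and shared both of their intervals, so their values are the same measurement: 0.15 with loss of Cpt2 (limma adjusted p = 0.485). Abca1, which loads cholesterol onto apolipoprotein A-I, differed by -0.09 (adjusted p = 0.677) over 6 intervals. The interval over its start (chromosome 4, 53158446 to 53160237) stood apart from that mean, and there the WT livers had folds of 26 and 41.4, those of Cpt2 KO 16.4 and 13.9, those of Ppara KO 12.5 and 11.5, and those of DKO 17.2 and 24.7. Both WT livers lay above the other 6. Against WT it was lower in Cpt2 KO (-1.35, adjusted p = 0.00529), in Ppara KO (-1.44, adjusted p = 0.00713) and in DKO (-0.97, adjusted p = 0.0105), comparisons that share the WT livers, and the interaction of both losses was 1.82 (adjusted p = 0.0774). The first call held without any 1 library, the second was lost without WT replicate 2 (adjusted p up to 0.0592) or Ppara KO replicate 2, and the third without WT replicate 2 or DKO replicate 1 (up to 0.0827). This Abca1 interval was singled out after its values were seen. Stard4, which carries sterols between membranes, differed by -0.23 with loss of Cpt2 (adjusted p = 0.346).

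Loss of Ppara (Ppara KO and DKO against WT and Cpt2 KO) changed 2 of the 24 genes in H3K27ac. Lss was higher and Srebf2 lower, where over all genes 1.25% were higher and 3.64% lower. Lss rose by 0.85 (SE 0.21, limma adjusted p = 0.0434). Its centred values in the WT livers were -0.93 and -0.91, those of Cpt2 KO -1.61 and -1.85, those of Ppara KO -0.48 and 0.13, and those of DKO -1.17 and -0.36, so the groups overlapped. The Lss call was lost in 7 of the 8 fits without 1 library (adjusted p from 0.0289 to 0.155), and that of Srebf2 in 4 of 8 (adjusted p from 0.0179 to 0.0767). Without centring 0 of the 24 genes passed for Ppara (1.78% of all genes), and with the smallest peak width as a covariate 0 (2.67% of all genes). The median over the 24 genes was 0.05, against -0.04 for all genes. Msmo1 (0.63, adjusted p = 0.125), Pmvk (0.41, adjusted p = 0.118) and Dhcr7 (0.33, adjusted p = 0.139) did not pass. Among intervals, 2 of 47 were higher (3.19% of all intervals) and 3 lower (4.15%), namely those of Lss and Scap, and of Fdft1 and Srebf2.

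Genotypes were also compared in pairs. Against WT, Cpt2 KO livers had lower H3K27ac at 5 of the 24 genes (5.74% of all genes lower, 3.21% higher): Insig1 by -1.23 (limma adjusted p = 0.00586), Scarb1 by -1.01 (0.0106), Hmgcs1 by -0.98 (0.0110), Sc5d by -0.87 (0.0167) and Srebf2 by -0.78 (0.0269). Ppara KO livers differed from WT at 1 gene, Srebf2, by -0.94 (adjusted p = 0.0212), where 3.93% of all genes were lower and 1.28% higher. DKO livers had the same 5 genes lower than WT and Fdps higher (10.1% of all genes lower, 6.09% higher): Srebf2 by -1.12 (adjusted p = 0.00425), Scarb1 by -0.78 (0.0142), Hmgcs1 by -0.76 (0.0149), Sc5d by -0.76 (0.0166), Insig1 by -0.56 (0.0394) and Fdps by 0.68 (0.0214). These 3 comparisons share the WT livers. All 3 counts depended on single livers. The count for Cpt2 KO fell without WT replicate 2 or either Cpt2 KO liver, and that for DKO fell without either DKO liver. The count for Ppara KO rose without WT replicate 1 and fell without WT replicate 2 or either Ppara KO liver. In each of these fits the share of all genes called moved in the same direction. Among the 47 intervals, 15 were lower and 0 higher in Cpt2 KO (7.69% and 5.82% of all intervals), 3 lower and 1 higher in Ppara KO (3.59% and 2.83%), and 12 lower and 1 higher in DKO (11.5% and 8.62%).

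Within Ppara-null livers, the effect of losing Cpt2 is the DKO minus Ppara KO difference. It was -0.29 for Insig1, -0.17 for Hmgcs1, -0.18 for Srebf2, -0.43 for Scarb1 and -0.54 for Sc5d, and 0 of the 24 genes passed in limma, with 0.0888% of all genes called. At an unadjusted p under 0.05 stood 8 of the 24 and 14.3% of all genes. The interaction, which tests whether the effect of Cpt2 loss differs with Ppara, also called 0 of the 24 genes (0.071% of all genes), with 5 at an unadjusted p under 0.05 (13.7% of all genes). Its estimates were 0.93 for Insig1 (adjusted p = 0.151), 0.81 for Hmgcs1 (0.217), 0.60 for Srebf2 (0.336) and 0.58 for Scarb1 (0.332), so a difference between Ppara-intact and Ppara-null livers was not shown. Comparing DKO with Cpt2 KO called 0 genes too (1.03% of all genes), with 3 of 24 at an unadjusted p under 0.05 (11.9% of all genes). Lss differed by 0.97 and Insig1 by 0.67 (adjusted p = 0.0884).

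**Figure D5:**
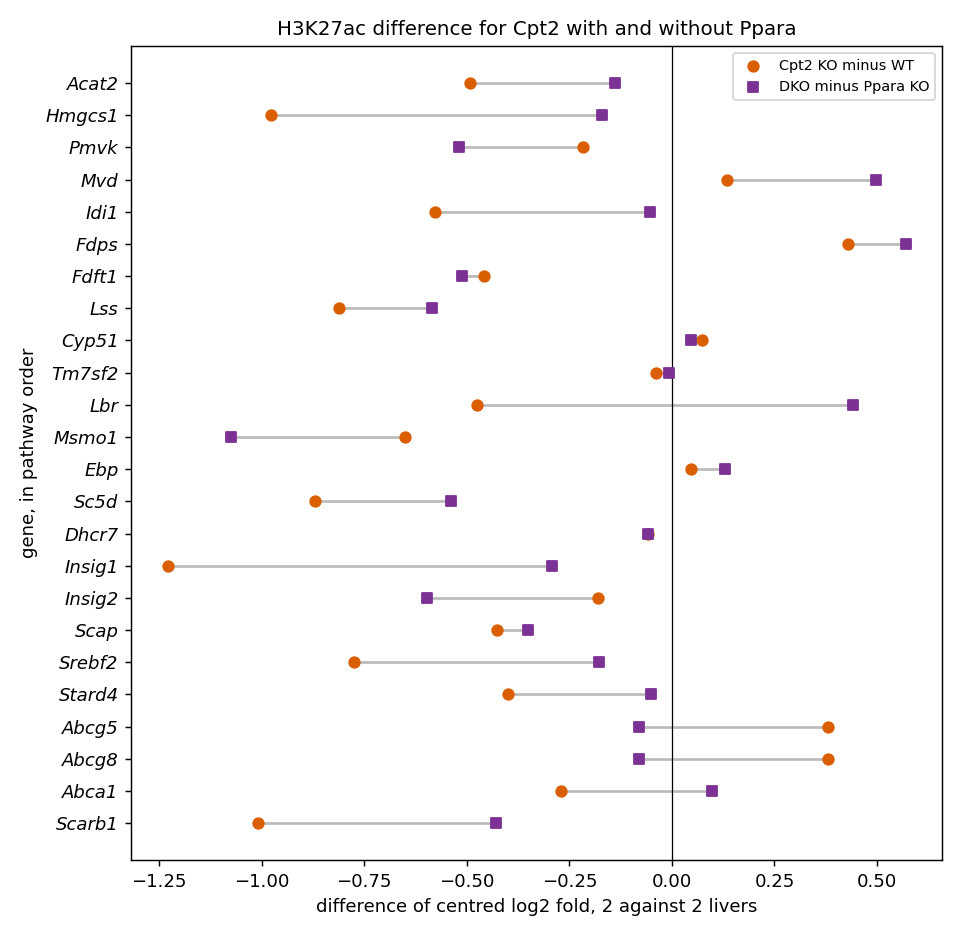
Log2 H3K27ac difference with loss of Cpt2 (x axis) for each of the 24 genes (rows). Circles give Cpt2 KO minus WT, with Ppara present, and squares DKO minus Ppara KO, with Ppara absent. A line joins both values of a gene. Of the 24 genes 18 are negative in each comparison, and Insig1 lies at -1.23 and -0.29.

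Peak calls were counted in each library without a test. They come from the same peak lists as the folds and are not a separate measurement. The smallest peak width of these H3K27ac lists also separates Cpt2-null from Cpt2-intact livers, as given above. WT livers had H3K27ac peaks called in 109 and 128 of the 181 intervals, Cpt2 KO livers in 73 and 78, Ppara KO livers in 90 and 96, and DKO livers in 74 and 93. In percent this was 60.2 and 70.7 for WT against 40.3 and 43.1 for Cpt2 KO, while over all 65776 intervals the libraries had 52.2 and 51.5 for WT and 54.5 and 53.8 for Cpt2 KO. For Ppara KO it was 49.7 and 53 near the listed genes and 51 and 48.8 over all intervals, and for DKO 40.9 and 51.4 against 55 and 59. Intervals called in at least 3 Cpt2-intact livers and in no Cpt2-null liver numbered 11 of 181 (6.08%, against 2.49% of all intervals), 3 each near Fdft1 and Scap, 2 near Scarb1 and 1 each near Msmo1, Dhcr7 and Abca1. The reverse pattern held for 2 of 181 (1.10%, against 4.50%), both near Abca1. For Ppara, 3 were gained (1.63% of all), near Sqle, Lss and Hsd17b7, and 4 lost (1.73% of all), of which 3 lie downstream of Hmgcs1 and 1 near Abca1. H3K9ac overlapped 76 of the 181 intervals in the WT liver and 63 in the Cpt2 KO liver, with no replicate of either.

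In H3K4me1, 21 of the 28 genes could be tested, and 0 of them passed in limma in any comparison. Over 8184 genes the mark called 1 gene with loss of Ppara (0.0122%) and 0 with loss of Cpt2. Of the 63 H3K4me1 intervals tested 0 passed for Ppara, where 0.0461% of all intervals were higher and 0.0819% lower. At an unadjusted p under 0.05 stood Hmgcs1 (-0.38) and Insig2 (0.38) for Ppara, and Srebf2 (-0.32), Scarb1 (-0.30) and Lss (0.57) for Cpt2, where 12.4% of all genes for Ppara and 7.7% for Cpt2 had such a p. Peak calls of H3K4me1 near these genes are given as counts, with no test. Of the 273 intervals, WT livers had 173 and 186 called, Ppara KO livers 169 and 138, Cpt2 KO livers 115 and 132, and DKO livers 124 and 135. Every Cpt2-null library lay below every Cpt2-intact library, from 42.1% to 49.5% against 50.5% to 68.1%, while over all H3K4me1 intervals the 8 libraries ran from 44.1% to 51%. The H3K4me1 replicates of Cpt2 KO were the least alike: 55.0% of replicate 2 peaks overlapped replicate 1, against 71.6% to 76.9% in other genotypes. Their peaks covered 41.38 Mb in replicate 1 and 53.54 Mb in replicate 2, where the 8 libraries ran from 38.75 to 53.54 Mb. Called in at least 3 Cpt2-intact and no Cpt2-null livers were 12 of 273 (4.40%, against 1.30% of all intervals), with 4 near Fdft1 and 3 near Scap, and the reverse held for 1, near Mvk (1.41% of all). With loss of Ppara 8 were gained (1.96% of all), 3 of them near Sqle, and 8 lost (2.84% of all), 3 of them near Abca1.

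Other sterol genes outside the list were read for comparison, 27 by name of which 23 were tested in H3K27ac. With loss of Cpt2 2 were lower and 0 higher (5.42% and 4.16% of all genes), with a median of -0.06, and with loss of Ppara 0 passed (3.64% of all genes lower, 1.25% higher). Cyp27a1, the mitochondrial sterol 27-hydroxylase of bile acid synthesis, was tested on centred values: the WT livers stood at 0.42 and 0.34, those of Cpt2 KO -0.59 and -0.60, those of Ppara KO 0.05 and 0.14, and those of DKO -0.41 and -0.44. Its Cpt2-null and Cpt2-intact livers did not overlap, and the difference was -0.75 (SE 0.12, limma adjusted p = 0.00913). Srebf1, which encodes the SREBP forms of fatty acid synthesis, had the WT livers at 1.08 and 1.10, those of Cpt2 KO -0.28 and -0.25, those of Ppara KO -0.06 and 0.24, and those of DKO 0.10 and -0.02. WT was far above the other genotypes, which overlapped, and the Srebf1 difference was -0.70 (SE 0.12, adjusted p = 0.0110). Srebf1 did not pass without centring (-0.43), with −log10 q of at least 10 (-0.17), at its strongest interval (-0.18) or with peak width as a covariate, and Cyp27a1 did not at its strongest interval or with width. In the pairs against WT, Srebf1 was lower in Cpt2 KO (-1.36, limma adjusted p = 0.00452), Ppara KO (-1.003, adjusted p = 0.0143) and DKO (-1.05, adjusted p = 0.00414).

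The tissue label was checked against markers of liver cell types. All 8 hepatocyte markers were tested in H3K27ac, with 29 to 34 intervals called over the list in Cpt2-intact and 20 to 44 in Cpt2-null livers. One of the 8, Serpina1a, was lower with loss of Cpt2 (-0.80, limma adjusted p = 0.0124) and with loss of Ppara (-0.64, adjusted p = 0.0286). Markers of Kupffer cells and other macrophages had 4 to 8 called intervals over 6 genes in Cpt2-intact livers and 12 to 29 in Cpt2-null livers, with Cd5l, Vsig4 and Adgre1 at 0 in every Cpt2-intact liver. Stellate cell markers had 2 to 3 and 6 to 13, with Reln at 0 in the Cpt2-intact livers and Col1a1 at 0 in all 8 livers. Endothelial markers had 35 to 58 and 45 to 50, and lymphocyte markers 2 to 3 and 3 to 7, with Cd3e at 0 throughout. Of the 4 cholangiocyte markers, Krt19, Krt7 and Epcam were at 0 in all 8 livers. The remaining marker, Sox9, had 2 intervals called per WT liver and per DKO liver. Ppara KO livers had 1 and 2 called for Sox9, whereas neither Cpt2 KO liver had any. In the limma fit 0 of 2 tested macrophage markers passed for loss of Cpt2 (Clec4f 0.56, adjusted p = 0.0631, and Csf1r 0.44, adjusted p = 0.0697), and 0 of 1 tested stellate marker (Dcn 0.39, adjusted p = 0.20). Both macrophage markers were higher in DKO than in WT, Clec4f by 0.97 (limma adjusted p = 0.0235) and Csf1r by 0.69 (adjusted p = 0.0393). Over all genes 6.09% were higher there. In Cpt2 KO against WT neither passed (Clec4f 0.51, limma adjusted p = 0.203, and Csf1r 0.33, adjusted p = 0.314). The counts of called macrophage and stellate intervals were thus higher in Cpt2-null livers, without a test, and the part of these cells, and of Serpina1a, in the results for the sterol genes was not tested. In bulk liver, fewer cells of a type and less mark per cell cannot be told apart.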

How the data were processed

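Peaks of the 16 H3K27ac and H3K4me1 libraries were called per library with MACS2 2.1.0 after alignment with BWA to mm10, per the submitters' processing notes. The fold enrichment of a peak over input is a ratio made by the authors, and the −log10 q of a peak was deposited beside it and used as a filter in 1 alternative. Deposited consensus intervals give positions only, as do the H3K9ac intervals (39287 for WT, 41122 for Cpt2 KO). Replicate 2 of Ppara KO in H3K27ac names a different build in its peak names, but 83.9% of its peaks overlapped replicate 1 (80.9% to 83.0% in other genotypes), so it was used as mm10.

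Each interval took the highest fold of a peak overlapping it by at least 1 base, as log2, centred on the library median of intervals called in all 8 libraries. Genes were RefSeq GRCm38.p6 bodies with interval midpoints inside or within 10 kb. Gene means were fitted with limma 3.58.1 in R 4.3.3 (lmFit, eBayes with trend) as 4 genotype means over the 8 libraries of a mark, with Benjamini-Hochberg adjusted p under 0.05 over all genes. Intervals were fitted likewise. Genes named with full values are those past the threshold for loss of Cpt2 or Ppara. Members and lists were chosen with earlier results of these data known. The script was tested on simulated data. Pooled inputs, certain withheld items and reads were not analysed here. Alternatives covered scaling, filters, windows, peak width, the replicate number as a block and each library left out. Python 3.11.15 and pandas 2.3.3 were used.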

Additional observations from a re-analysis of the deposited data

How the results depend on the processing

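Counts of listed genes past the limma threshold in H3K27ac depended on the processing, and the cause was not tested. Percentages in brackets give the share of all genes tested that passed. For loss of Cpt2, 8 genes passed (9.57%), against 4 without centring (21%) and 4 with intervals within 1 kb (9.47%). With the smallest peak width as covariate 0 passed (0%), and fewer than 8 did in every fit without 1 library. For loss of Ppara, 2 passed (4.89%), against 0 without centring (1.78%), 1 after quantile normalization (5.29%) and 0 with width (2.67%). No more than 2 passed in any fit without 1 library. Cpt2 KO against WT gave 5 (8.95%), then 1 without centring (6.15%), 0 with width (0%) and fewer without some single libraries. Ppara KO against WT gave 1 (5.21%), then 0 without centring (1.46%), 2 after quantile normalization (5.09%) and 2 with intervals called in at least 6 libraries (8.33%). It gave 2 with the strongest interval (6.36%), 0 with width (0.204%) and more or fewer without some single libraries. DKO against WT gave 6 (16.1%), then 3 without centring (15%), 0 with width (0%) and more or fewer without some single libraries. In fits without 1 library the share of all genes that passed moved too. The interaction and H3K4me1 counts were 0 in every alternative. With the replicate number as a block, 8 genes passed for Cpt2 (11.4%), 2 for Ppara (5.8%) and 7 for DKO against WT (17.7%). Deviations of same-numbered libraries had correlations from -0.03 to 0.17 in H3K27ac. In H3K4me1 they ran from -0.49 (Cpt2 KO with Ppara KO) to 0.16 (WT with Cpt2 KO). With 2 libraries per genotype these values cannot settle whether the numbers pair the samples.

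Some differences changed sign. For Sc5d with loss of Ppara (-0.06) the value was 0.0175 after quantile normalization, 0.131 at the strongest interval, 0.0283 with width and from -0.147 to 0.0287 without 1 library. For Scarb1 with loss of Ppara (-0.06) it was 0.0847 with −log10 q of at least 10, 0.0747 at the strongest interval and from -0.136 to 0.0139 without 1 library. Fdps with loss of Cpt2 (0.50) was -0.0356 with intervals called in at least 6 libraries. With width as covariate, the Scarb1 interval at 125339059 gave 0.0321 and the Sc5d start interval 0.473 with loss of Cpt2. Single intervals and the other sterol genes under alternatives were added after seeing the data. Depth in reads is unknown, so counting error could not be given.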
